A study of Homo sapiens with 10 samples.

Results

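The 33 genes described here carry glucose into the cell, break it down to pyruvate, interconvert pyruvate and lactate, or pass pyruvate to the mitochondrial pyruvate dehydrogenase complex. They were taken from a list of gene names, by symbol or older alias. A named probe set was found for 31 of the 33, among 22426 named genes in all. The lactate transporters SLC16A1 and SLC16A3 had no probe set with either as its only named gene, and their expression was not analysed here.

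Glycolysis splits glucose into pyruvate in the cytosol and yields ATP without oxygen. Lactate dehydrogenase reduces pyruvate to lactate, while the mitochondrial pyruvate carrier and pyruvate dehydrogenase send it on to oxidation, a step that pyruvate dehydrogenase kinases inhibit and phosphatases restore. Clear-cell renal carcinoma is known for loss of VHL, for stable hypoxia-inducible factor (HIF) and for high expression of glucose transporters and glycolytic enzymes. The transcription factor ZHX2, named for its zinc fingers and homeoboxes, is known as a VHL substrate that accumulates in this tumour and acts with the NF-kB subunit p65, which RELA encodes.

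Expression was measured on Affymetrix arrays of 786-O, an established human clear-cell renal carcinoma line without functional VHL. All 5 groups had 2 arrays each and had been infected with lentivirus and selected with puromycin at 2 ug/ml. The ZHX2 table held cells with ZHX2 hairpin 44, cells with ZHX2 hairpin 45 and cells with a scrambled hairpin, and the p65 table held cells with p65 shRNA and cells with a control shRNA. Whether the 2 arrays of a group stand for separate cultures is not in the labels, and p-values therefore measure no more than the spread between these samples, which could be technical. With 2 arrays a group, precision is limited by their number. As bulk RNA was measured, fewer cells of a type and less RNA per cell cannot be told apart.

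Values are log2 signals of RMA, a method that corrects background, normalizes arrays and summarises the probes of a set. The 2 arrays of each group correlated across genes with r between 0.985 and 0.995. The signal of ZHX2 was 9.35 and 9.38 with hairpin 44, 8.93 and 9.02 with hairpin 45, and 10.58 and 10.43 with the scrambled hairpin. ZHX2 fell by 1.14 with hairpin 44 (limma adjusted p = 0.00528) and by 1.53 with hairpin 45 (adjusted p = 0.000926), the hairpin 44 call ending without either hairpin 44 array (0.0649 and 0.0662). The signal of RELA was 5.04 and 5.28 with p65 shRNA, against 7.64 and 7.67 with control shRNA, a difference of -2.50 (SE 0.178, limma adjusted p = 0.0732, or 0.00132 with an intensity trend). In the ZHX2 table RELA rose by 0.44 with both hairpins averaged (adjusted p = 0.0112), a call that ended without scrambled replicate 2 (adjusted p = 0.0554). Of 10 renal carcinoma markers 7 were measured, and PAX8, a transcription factor of the renal epithelium, read 11.74 to 12.18 on the hairpin arrays and 12.32 and 12.35 on the scrambled arrays. The mean signal of these 7 markers was 9.69 to 9.71 with hairpin 44, 9.40 to 9.44 with hairpin 45 and 9.84 to 9.94 with the scrambled hairpin, with CDH6 (-1.92), LHX1, PAX8 and PAX2 lower and KRT18 higher. The mean of 5 measured leukocyte markers was 6.04 to 6.09, 5.997 to 6.01 and 6.08 to 6.21 in the same 3 groups, with CD68 lower, and that of 6 fibroblast markers was 5.70 to 5.72, 5.66 to 5.74 and 5.92 to 5.95, with LUM lower. COL1A1 of the fibroblast list was called lower with hairpin 45 alone, and CDH6 was called lower with hairpin 45 than with hairpin 44. None of 5 endothelial and 2 erythroid markers was called. These marker shifts moved with the ZHX2 comparisons below, and their part in the results was not tested.

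The first comparison asks which of these genes changed when ZHX2 was knocked down, with both hairpins averaged against the scrambled hairpin. Of the 31 genes, 12 rose, 1 fell and 18 did not pass the limma test (Benjamini-Hochberg adjusted p under 0.05 over all genes). The genes that rose were SLC2A1, SLC2A3, HK2, PGM2, GPI, TIGAR, GAPDH, PGK1, PGAM1, ENO1, LDHB and MPC1, and the gene that fell was PDK2. That is 38.7% higher, beside 11.9% of all genes, and 3.23% lower, beside 6.41% of all genes. The list was chosen with earlier results of these data known. Shares set beside all genes, here and below, therefore describe the list and are no independent test of it. At an unadjusted p under 0.05 the counts were 15 higher and 4 lower. No share of all genes was worked out beside these counts, so they show nothing particular to the 31 genes. The median log2 change was 0.16 for the 31 genes and -0.004 for all genes, and 22 of the 31 lay above 0, beside 49.3% of all genes. Changes ran from -0.43 for PDK2 to 0.77 for SLC2A3. All 4 hairpin arrays lay above both scrambled arrays for 17 of the 31 genes (54.8%, beside 21.9% of all genes) and below both for PFKL, PDK2 and PDP1 (9.68%, beside 16.4%).

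**Figure D1:**
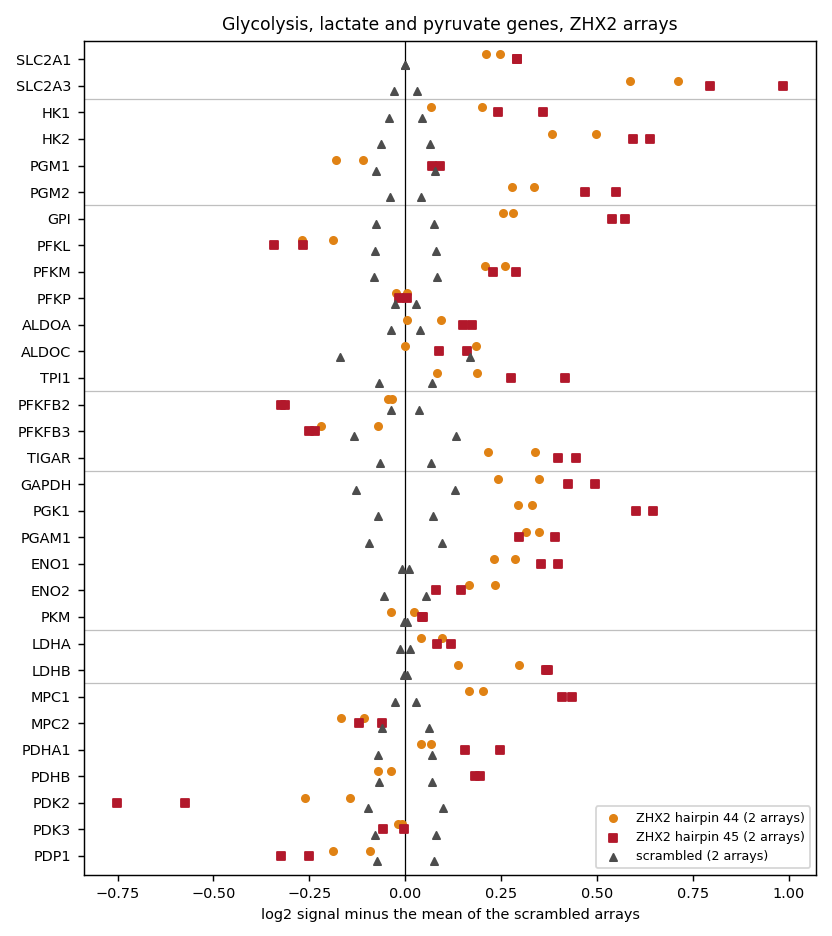
Each point is 1 array of the ZHX2 table: the horizontal axis gives the log2 signal minus the mean of the 2 scrambled arrays, and genes run down the page by role, with lines between roles. The 4 hairpin arrays of SLC2A3, HK2 and PGK1 lie to the right of both scrambled arrays, and the hairpin 45 arrays of PDK2 lie farthest to the left.

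Promoters are shown for HK2, PGK1 and PGM2, the risen genes of smallest adjusted p with a window, and for PDK2, the gene that fell. SLC2A3 had no window. HIF proteins are known to bind a core of ACGTG, and MYC and the carbohydrate-responsive MLX partners are known to bind CACGTG, which contains that core. The sequences are the 250 bases upstream of the gene start, 5′ to 3′ on the gene's strand, from RefSeq on GRCh38.p14, where 29 of the 33 genes, SLC16A3 among them, had a window. HK2 lies at chr2:74833877-74834126, PGK1 at chrX:78103998-78104247, PGM2 at chr4:37826436-37826685 and PDK2 at chr17:50094487-50094736, all on the plus strand. Capitals mark ACGTG on either strand.
HK2: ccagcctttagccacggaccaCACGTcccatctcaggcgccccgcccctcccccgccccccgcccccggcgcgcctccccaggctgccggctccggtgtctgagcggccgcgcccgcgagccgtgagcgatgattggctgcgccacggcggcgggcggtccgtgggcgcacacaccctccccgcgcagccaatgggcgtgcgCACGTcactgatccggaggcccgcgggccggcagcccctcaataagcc
PGK1: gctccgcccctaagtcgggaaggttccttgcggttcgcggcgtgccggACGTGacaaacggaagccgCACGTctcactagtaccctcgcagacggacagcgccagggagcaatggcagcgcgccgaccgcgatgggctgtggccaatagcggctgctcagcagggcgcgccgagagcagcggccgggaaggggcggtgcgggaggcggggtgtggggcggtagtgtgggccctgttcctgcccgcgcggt
PGM2: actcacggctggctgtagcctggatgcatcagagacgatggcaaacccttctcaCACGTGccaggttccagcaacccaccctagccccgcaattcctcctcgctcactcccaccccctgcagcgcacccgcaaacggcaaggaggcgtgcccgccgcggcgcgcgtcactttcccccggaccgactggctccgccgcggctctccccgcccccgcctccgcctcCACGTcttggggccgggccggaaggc
PDK2: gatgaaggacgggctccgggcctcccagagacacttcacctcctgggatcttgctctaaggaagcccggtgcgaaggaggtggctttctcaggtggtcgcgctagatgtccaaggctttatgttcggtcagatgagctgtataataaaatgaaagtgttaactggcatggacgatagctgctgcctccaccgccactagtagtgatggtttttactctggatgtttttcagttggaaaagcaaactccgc

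The core ACGTG stood at 2 places in the HK2 window and at 2 in the PGK1 window, while the PGM2 window held 1 copy of CACGTG, which reads as the core on both strands, and a further core near the gene start. The PDK2 window had no match to these letters. Within these 250 bases, 12 of the 29 genes held ACGTG on either strand (41.4%), beside 18.7% of 27305 RefSeq windows cut to the same 250 bases. Those windows were not limited to the genes measured here and were not matched to the 29 in base composition. The part of base composition in these shares was not tested. Of the 11 risen genes with a window, 6 held it. The window of LDHA, a gene that was not called, held 5 matches, counting both strands of each of its 2 copies of CACGTG. By the same count the PGM2 window held 3. CACGTG, whose matches all count under ACGTG too, was in 5 of the 29 windows (17.2%, beside 6.5%), and the kappaB consensus was in 2, those of PFKM and PDHA1 (6.9%, beside 5.1%). A match is a run of letters in a window and was not tested as a binding site.

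Both glucose transporters rose. SLC2A3, a high-affinity glucose transporter, had log2 signals of 6.83 and 6.70 with hairpin 44, 7.10 and 6.91 with hairpin 45, and 6.08 and 6.15 with the scrambled hairpin. Every hairpin array exceeded every scrambled array by more than 0.5, and the change of 0.77 (SE 0.0839, limma adjusted p = 0.00426), or 1.70-fold, was the largest of the 31. SLC2A1, the widely expressed basal glucose transporter, had 13.16 and 13.20 with hairpin 44 and 13.24 with both hairpin 45 arrays, against 12.95 on both scrambled arrays. Its change was smaller at 0.26 (SE 0.0606, adjusted p = 0.0350), with no overlap between the groups. The SLC2A1 call ended on omission of any single array (adjusted p 0.0802 to 0.110) and after quantile normalization (change 0.17, adjusted p = 0.0962).

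Of the hexokinases and phosphoglucomutases, 2 of 4 rose, with a median change of 0.31. HK2, the inducible hexokinase that traps glucose as glucose phosphate, had 8.62 and 8.50 with hairpin 44, 8.71 and 8.76 with hairpin 45, and 8.19 and 8.06 with the scrambled hairpin. All 4 hairpin arrays lay above both scrambled arrays, and HK2 rose by 0.53 (SE 0.0745, adjusted p = 0.00838), or 1.44-fold. PGM2, a phosphoglucomutase that acts mainly on pentose phosphates, had 9.64 and 9.69 with hairpin 44, 9.82 and 9.91 with hairpin 45, and 9.40 and 9.32 with the scrambled hairpin. It rose by 0.41 (SE 0.0680, adjusted p = 0.0130), again without overlap. The PGM2 call ended without scrambled replicate 2, hairpin 44 replicate 2 or hairpin 45 replicate 2 (adjusted p 0.0507 to 0.0648). HK1, the constitutive hexokinase, was at 0.22 (adjusted p = 0.115) and PGM1, which links glycogen to glycolysis, at -0.03, and neither passed the test.

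Upper glycolysis, from glucose phosphate to triose phosphates, had 1 of 7 genes called and a median of 0.11. GPI, which converts glucose phosphate to fructose phosphate, had 11.25 and 11.28 with hairpin 44, 11.54 and 11.57 with hairpin 45, and 11.07 and 10.92 with the scrambled hairpin. The arrays did not overlap and GPI rose by 0.41 (SE 0.0717, adjusted p = 0.0147). Its call ended without the same 3 arrays as for PGM2 (adjusted p 0.0542 to 0.0632). The 3 phosphofructokinase genes, which encode the committed step, differed in sign: PFKM was at 0.25 (adjusted p = 0.0759), PFKP at -0.01 (95% interval -0.16 to 0.14) and PFKL at -0.27 (adjusted p = 0.0649), none past the threshold. After quantile normalization PFKL at -0.37 was called lower (adjusted p = 0.0173). The aldolases ALDOA and ALDOC were at 0.10 and 0.11 and the triosephosphate isomerase TPI1 at 0.24, and none of them passed.

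A set of 3 enzymes sets the level of the sugar bisphosphate that activates phosphofructokinase. TIGAR, a p53-induced bisphosphatase that lowers it, had 8.81 and 8.68 with hairpin 44, 8.91 and 8.87 with hairpin 45, and 8.54 and 8.40 with the scrambled hairpin. TIGAR rose by 0.35 (SE 0.0760, adjusted p = 0.0282) with no overlap. The call held without scrambled replicate 1 and ended without any other single array (adjusted p 0.0589 to 0.120). PFKFB2, a bifunctional enzyme that can raise the activator, had 8.19 and 8.18 with hairpin 44, 7.91 and 7.90 with hairpin 45, and 8.26 and 8.19 with the scrambled hairpin. Here only the hairpin 45 arrays stood clear of the scrambled arrays: PFKFB2 fell by 0.32 with hairpin 45 (SE 0.0723, adjusted p = 0.0303, ended by leaving out any array), while the mean of both hairpins at -0.18 was not called (adjusted p = 0.108). PFKFB3, the isozyme best known in proliferating cells, was at -0.20 (adjusted p = 0.233).

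Lower glycolysis, from triose phosphate to pyruvate, had 4 of 6 genes called higher and a median of 0.33. PGK1, the first ATP-producing kinase of the pathway, had 9.24 and 9.27 with hairpin 44, 9.55 and 9.59 with hairpin 45, and 9.02 and 8.87 with the scrambled hairpin. The hairpin 45 arrays were above the hairpin 44 arrays, which were above the scrambled arrays, and PGK1 rose by 0.47 (SE 0.0714, adjusted p = 0.0103), or 1.38-fold. GAPDH, the glyceraldehyde phosphate dehydrogenase, had 10.30 and 10.41 with hairpin 44, 10.55 and 10.49 with hairpin 45, and 10.19 and 9.93 with the scrambled hairpin. The scrambled arrays of GAPDH were farther apart than those of either hairpin, and the rise was 0.38 (SE 0.0935, adjusted p = 0.0419). PGAM1, a phosphoglycerate mutase, had 7.67 and 7.70 with hairpin 44, 7.74 and 7.65 with hairpin 45, and 7.45 and 7.26 with the scrambled hairpin. Both hairpins were alike for PGAM1, which rose by 0.34 (SE 0.0808, adjusted p = 0.0379).

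ENO1, the common enolase, had 10.18 and 10.24 with hairpin 44, 10.35 and 10.30 with hairpin 45, and 9.96 and 9.94 with the scrambled hairpin. Its arrays were tight in each group, and ENO1 rose by 0.32 (SE 0.0625, adjusted p = 0.0210), with a change of 0.37 on its other, dimmer probe set. The calls of GAPDH and PGAM1 held without scrambled replicate 1 and ended without any other array (adjusted p 0.0825 to 0.149 and 0.0813 to 0.140), and the ENO1 call ended without any array (0.0561 to 0.0792). After quantile normalization GAPDH at 0.26 (adjusted p = 0.0901) and ENO1 at 0.19 (adjusted p = 0.0747) were no longer called. ENO2, the neuronal enolase, was at 0.16 (adjusted p = 0.191) and PKM, the pyruvate kinase of the last step, at 0.02 (95% interval -0.13 to 0.17). Several of these genes, GAPDH and PGK1 among them, are known to have near-identical processed copies in the genome, so their probe sets may read more than 1 locus and their values are uncertain to that extent.

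At the lactate step LDHB rose and LDHA did not pass the test. LDHB, the dehydrogenase subunit that favours lactate oxidation, had 8.73 and 8.89 with hairpin 44, 8.96 and 8.97 with hairpin 45, and 8.60 and 8.59 with the scrambled hairpin. All hairpin arrays exceeded the scrambled arrays and LDHB rose by 0.29 (SE 0.0717, adjusted p = 0.0404). The call ended on omission of any array (adjusted p 0.0592 to 0.131) and after quantile normalization (0.21, adjusted p = 0.0951). LDHA, the subunit that favours lactate production, had 9.70 and 9.75 with hairpin 44, 9.74 and 9.77 with hairpin 45, and 9.67 and 9.64 with the scrambled hairpin. These arrays did not overlap either, but the difference was 0.08 with a 95% interval of -0.07 to 0.24 (adjusted p = 0.417).

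Among 7 genes of pyruvate entry and pyruvate dehydrogenase, 1 rose and 1 fell, with a median of -0.02. MPC1, a subunit of the mitochondrial pyruvate carrier, had 7.36 and 7.33 with hairpin 44, 7.60 and 7.57 with hairpin 45, and 7.19 and 7.14 with the scrambled hairpin. The groups did not overlap and MPC1 rose by 0.30 (SE 0.0625, adjusted p = 0.0242), a call that ended without any 1 array (adjusted p 0.0505 to 0.0925). PDK2, a kinase that inhibits pyruvate dehydrogenase, had 6.68 and 6.56 with hairpin 44, 6.25 and 6.07 with hairpin 45, and 6.73 and 6.92 with the scrambled hairpin. PDK2 fell by 0.43 (SE 0.0938, adjusted p = 0.0278), with the hairpin 45 arrays the lowest, and the call held without scrambled replicate 1 and ended without any other array (adjusted p 0.0505 to 0.131). The carrier partner MPC2 was at -0.11, the dehydrogenase subunits PDHA1 and PDHB at 0.13 and 0.07, the kinase PDK3 at -0.02 and the phosphatase PDP1 at -0.21, none past the threshold. PDP1 at -0.26 was called lower after quantile normalization (adjusted p = 0.0497), as was PFKFB2 at -0.25 (adjusted p = 0.0345).

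The hairpins were also compared with the scrambled hairpin 1 at a time. With hairpin 44, which left more ZHX2 signal, 2 of 31 genes rose (6.45%, beside 4.81% of all genes) and 0 fell (beside 2.84%). The genes were SLC2A3 at 0.65 (SE 0.0969, adjusted p = 0.0204) and HK2 at 0.44 (SE 0.0861, adjusted p = 0.0390). At an unadjusted p under 0.05, 14 were higher and 1 lower with hairpin 44. Again no share of all genes was worked out, so these counts cannot be weighed. With hairpin 45, 11 rose (35.5%, beside 13%) and 2 fell, PDK2 and PFKFB2 (6.45%, beside 7.11%). SLC2A3 rose by 0.89, PGK1 by 0.62, HK2 by 0.61, GPI by 0.56 and PGM2 by 0.51, and PDK2 fell by 0.66 (SE 0.108, adjusted p = 0.0114). The 11 were the genes called with both hairpins averaged, without PGAM1. The median change was 0.13 with hairpin 44 and 0.20 with hairpin 45. Both comparisons use the same 2 scrambled arrays, so their values stand side by side only as a description. Without 1 array the hairpin 44 calls of HK2 (any array, adjusted p 0.0600 to 0.196) and of SLC2A3 (either hairpin 44 or either scrambled array, 0.0659 to 0.127) ended, and for hairpin 45 the number of rises ran from 1 to 10.

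**Figure D2:**
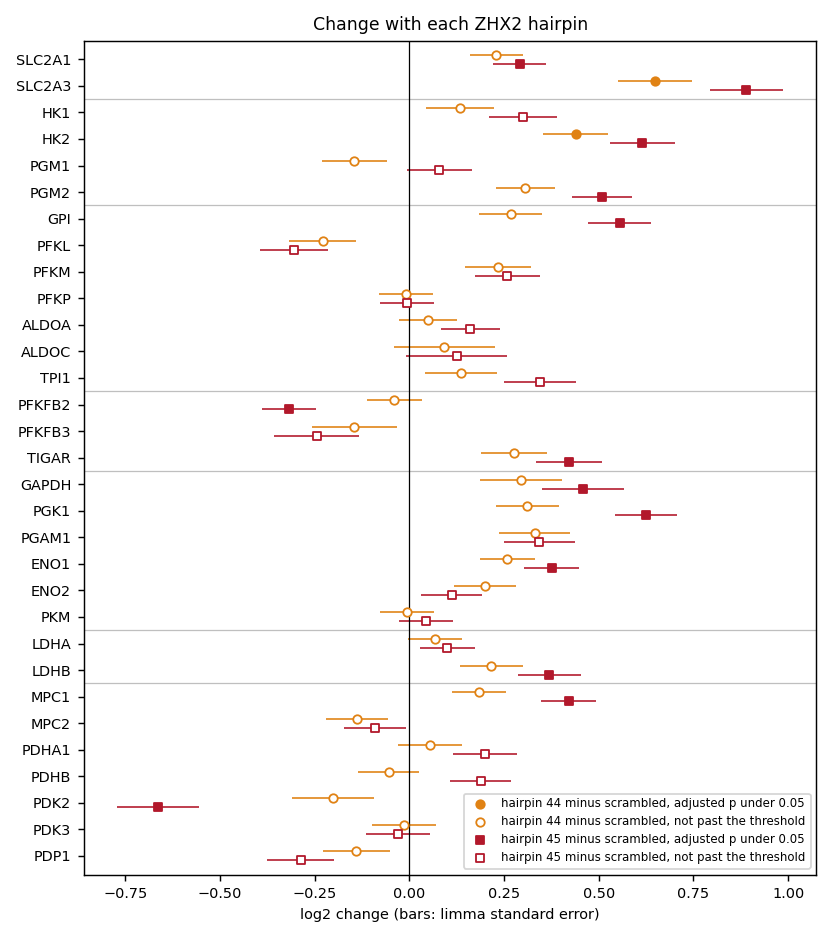
Points give the log2 change of each gene with hairpin 44 (circles) and with hairpin 45 (squares) against the 2 scrambled arrays, bars are limma standard errors, and filled points passed an adjusted p of 0.05. Filled circles stand at SLC2A3 and HK2, and the change with hairpin 45 is the larger in absolute size for 27 of 31 genes.

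Set directly against each other, hairpin 45 and hairpin 44 gave 0 genes higher (beside 0.129% of all genes) and 0 lower (beside 0.268%) among the 31. At an unadjusted p under 0.05, 7 were higher and 2 lower with hairpin 45. The share of all genes was not worked out there either, so these counts cannot be weighed. With an intensity trend in the fit, GPI at 0.29 (adjusted p = 0.00743) and PGK1 at 0.31 (adjusted p = 0.0167) were called higher with hairpin 45. The difference was -0.46 for PDK2 (95% interval -0.73 to -0.19, adjusted p = 0.170) and 0.24 for SLC2A3 (0.004 to 0.48, adjusted p = 0.326). The difference in ZHX2 itself was -0.39 (adjusted p = 0.152).

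Most of the genes that rose gave bright signals. Of the 31 genes, 20 had a mean signal at or above the third quartile of all genes, where 29.7% of all 5607 genes were called higher, 9.04% lower, and the median change was 0.13. Of these 20 genes, 9 were higher and 0 lower, with a median of 0.23, and of the 11 dimmer ones 3 were higher. The interquartile range of all signals was 2.88 and 2.90 with hairpin 44, 2.93 and 2.94 with hairpin 45, and 2.89 and 2.80 with the scrambled hairpin, and it became the same on all arrays after quantile normalization. Under that setting 8 of the 31 rose, beside 9.41% of all genes, and 4 fell, beside 8.29%, and the median was 0.12. The share of higher calls among all calls over all genes was 64.9% as reported, 53.2% after quantile normalization and 73% after median centring.

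SLC2A3, HK2 and PGK1 kept their calls under all 14 alternatives in which they were refitted. Across them the change ran from 0.72 to 0.82 for SLC2A3, from 0.46 to 0.59 for HK2 and from 0.37 to 0.54 for PGK1, with a highest adjusted p of 0.0329, 0.0478 and 0.0496 in that order. SLC2A3 alone of the 31 was also past 1.5-fold. The number of risen genes fell to 3 without scrambled replicate 2, hairpin 44 replicate 2 or hairpin 45 replicate 2, was 5 without hairpin 44 replicate 1 or hairpin 45 replicate 1, and was 8 without scrambled replicate 1.

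**Figure D3:**
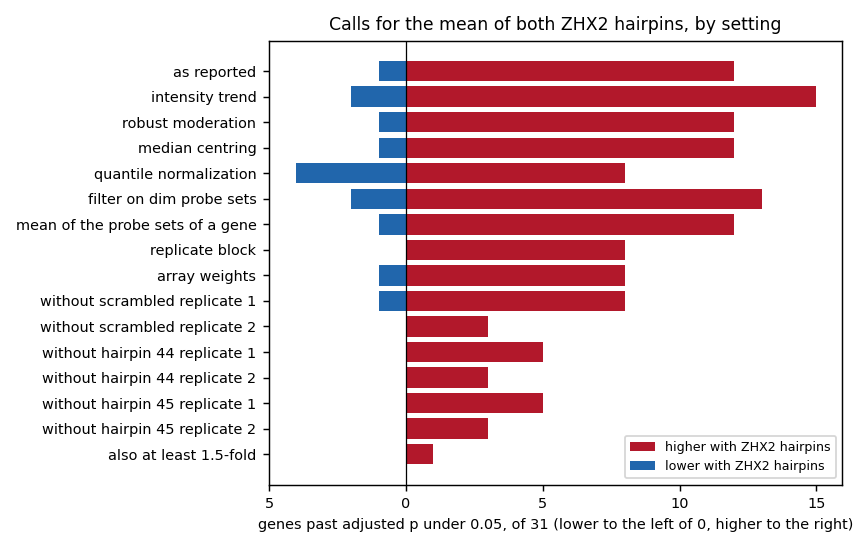
Bars give how many of the 31 genes passed an adjusted p of 0.05 for the mean of both hairpins, higher to the right and lower to the left of 0, in the reported fit and under each alternative. Shares of all genes are not drawn and moved too: 11.9% were higher as reported, 17.3% with an intensity trend and 21% with the dim filter. The number of rises lies between 3 and 15 except where at least 1.5-fold was also asked for, which leaves 1.

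Other genes of the pathway moved in both directions. Of 57 measured genes on lists of other isozymes, other lactate and pyruvate genes, gluconeogenesis, the pentose phosphate pathway and glycogen, 9 rose and 4 fell with both hairpins averaged. Of 17 other lactate and pyruvate genes, 6 rose, namely DLAT, GPD1L, LDHC, DLD, GPD2 and PDK1, and 0 fell, beside the 11.9% and 6.41% of all genes given above. LDHC was dim, at 4.92 to 5.32 on the hairpin arrays and 4.24 and 4.35 on the scrambled arrays, and the filter on dim probe sets removed it. DLAT, the acetyltransferase subunit of pyruvate dehydrogenase, had 9.57 and 9.61 with hairpin 44, 9.76 and 9.77 with hairpin 45, and 9.23 and 9.14 with the scrambled hairpin. DLAT rose by 0.49 (SE 0.0645, adjusted p = 0.00676) and GPD1L, a glycerol phosphate dehydrogenase relative, by 0.42 (adjusted p = 0.0110), and both kept the call without any array. The calls of DLD and PDK1 ended on omission of any array (adjusted p 0.0551 to 0.139 for DLD, 0.0818 to 0.131 for PDK1), that of GPD2 without any array other than scrambled replicate 1 (0.0623 to 0.151) and that of LDHC without scrambled replicate 2 (0.0768).

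Of 17 other isozymes, BPGM rose, with a call that ended without any 1 array (adjusted p 0.0544 to 0.107), and the transporters SLC2A12 and SLC2A2 fell. SLC2A12 fell by 0.79 (SE 0.111, adjusted p = 0.00815). SLC2A2, the liver-type glucose transporter, fell by 0.96 (SE 0.162, adjusted p = 0.0133), a call that ended without either scrambled array. SLC2A2 was dim, at 4.27 to 5.16 on the hairpin arrays and 5.64 and 5.70 on the scrambled arrays. All these values lie below the array medians of 6.15 to 6.22. In the pentose phosphate list RPIA, the ribose phosphate isomerase, rose by 0.60 (adjusted p = 0.00535) and H6PD, the glucose phosphate dehydrogenase of the endoplasmic reticulum, fell by 0.64 (adjusted p = 0.00357) among 7 genes. In the glycogen list PYGL, the liver-type phosphorylase, rose by 0.59 (adjusted p = 0.00908) and GBE1, the branching enzyme, fell by 0.41 (adjusted p = 0.0333) among 9. The GBE1 call ended without any array other than hairpin 44 replicate 1 (0.0642 to 0.125). With hairpin 45 alone ADPGK, PGD and PYGB were also called higher and GCKR and PPP1R3C lower, and each of these calls ended on omission of at least 5 of the 6 arrays. None of 7 gluconeogenesis genes passed, FBP1 being at -0.30 (adjusted p = 0.0511).

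Regulators moved both ways, with 2 of 10 higher and 4 lower. MYC, a transcription factor known to induce glycolytic genes, had 8.96 and 8.90 with hairpin 44, 9.02 and 9.07 with hairpin 45, and 8.17 and 8.08 with the scrambled hairpin. MYC rose by 0.86 (SE 0.0668, adjusted p = 0.00210) and kept its call without any array, as did MLX, the shared partner of the glucose-sensing factors, at 0.50 (adjusted p = 0.00717). TXNIP, which restrains glucose uptake, MLXIPL, a glucose-sensing factor, and the HIF subunit genes HIF1A and ARNT were called lower. The HIF1A and ARNT calls ended without any 1 array (adjusted p 0.0773 to 0.114 and 0.0846 to 0.141) and that of MLXIPL without scrambled replicate 2 (0.0755). EPAS1, which encodes the HIF subunit active in 786-O, was at 0.01 (95% interval -0.15 to 0.17).

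The last comparison asks how the same genes stood after p65 knockdown. With p65 shRNA against control shRNA, 0 of the 31 genes were higher and 0 lower by limma, beside 0% and 0% of all genes. At an unadjusted p under 0.05, 4 were higher (beside 6.39% of all genes) and 1 was lower (beside 7.95%), and with an intensity trend 1 was called higher (beside 1.37%) and 0 lower (beside 2.49%). The median change was -0.07 and 13 of 31 lay above 0, beside 50.8% of all genes. Both p65 shRNA arrays lay above both control arrays for 8 genes (25.8%, beside 23.3%) and below both for 12 (38.7%, beside 22.7%). The 8 were PFKM, PFKFB3, ENO2, MPC1, MPC2, PDK2, PDK3 and PDP1. The 12 were SLC2A1, HK1, PGM2, PFKL, PFKP, ALDOA, GAPDH, PGK1, ENO1, PKM, LDHA and PDHB.

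PDP1, the phosphatase that reactivates pyruvate dehydrogenase, had 6.41 and 6.46 with p65 shRNA, against 5.44 and 5.43 with control shRNA. Arrays within each group were close together, and the difference was 1.00 (SE 0.164, adjusted p = 0.106, or 0.0126 with an intensity trend). ENO2 had 4.45 and 4.49 with p65 shRNA, against 3.68 and 3.46 with control shRNA, a difference of 0.90 (SE 0.177, adjusted p = 0.132). MPC1 had 4.24 and 4.40 with p65 shRNA, against 3.74 and 3.75 with control shRNA, a difference of 0.57 (SE 0.170, adjusted p = 0.243). These 3 genes and PDK2 were those higher at an unadjusted p under 0.05. PDK2 had 2.14 and 2.41 with p65 shRNA, against 1.87 and 1.64 with control shRNA, a difference of 0.52 (SE 0.195, adjusted p = 0.330). PDK2 was dim in this table, with signals near the array medians of 1.87 to 1.89. LDHA had 5.80 and 5.90 with p65 shRNA, against 6.28 and 6.46 with control shRNA, a difference of -0.52 (SE 0.176, adjusted p = 0.287). SLC2A3 gave a larger difference, 1.11, but its arrays overlapped, at 2.43 and 3.87 with p65 shRNA, against 2.61 and 1.48 with control shRNA (adjusted p = 0.464).

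**Figure D4:**
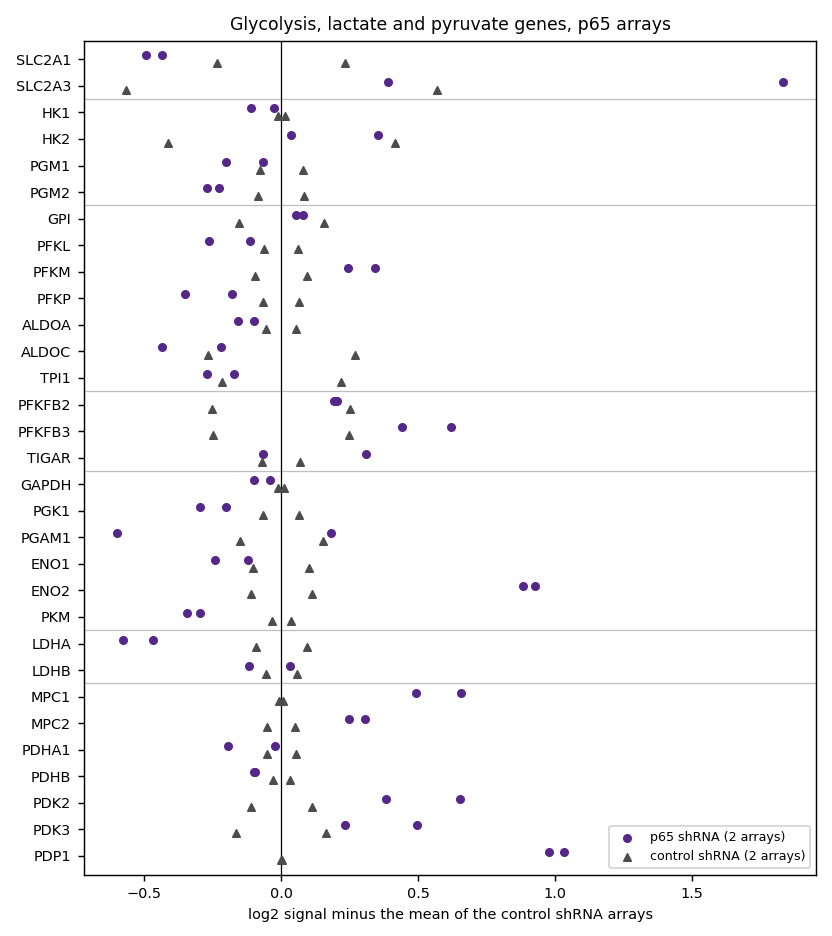
Each point is 1 array of the p65 table: the horizontal axis gives the log2 signal minus the mean of the 2 control shRNA arrays, and genes run down the page by role. The p65 shRNA arrays of PDP1 and ENO2 lie to the right of both control arrays, those of LDHA to the left, and those of SLC2A3 are spread on both sides of a control array.

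Of the 12 genes that rose with the ZHX2 hairpins, 7 lay below 0 with p65 shRNA, where 50.8% of all genes lay above 0. None of the 12 passed the test there. HK2 was at 0.19 with p65 shRNA (95% interval -0.60 to 0.99) and PGK1 at -0.25 (-0.68 to 0.18), and neither passed the test. PDK2, which fell with the ZHX2 hairpins, was at 0.52 with p65 shRNA, from dim signals and not past the test. The difference between the knockdowns was not tested, since the tables are of different platforms and were fitted apart. MYC was at 1.07 with p65 shRNA (95% interval 0.60 to 1.55, adjusted p = 0.116, or 0.00626 with an intensity trend) and EPAS1 at -0.85 (adjusted p = 0.228, or 0.0445 with the trend). Of the 57 other pathway genes 0 were called in either direction, and with the trend 1, GPD2 at -0.97, was called lower (adjusted p = 0.0114).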

How the data were processed

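Deposited log2 signals of 53617 probe sets on 6 arrays (ZHX2 table) and 4 arrays (p65 table) were used. Per the submitters' processing notes they are RMA signals; the log2 scale was read from the values. Software, version and build: not given in the sources used here. Array medians were 6.15 to 6.22 in the ZHX2 table and 1.87 to 1.89 in the p65 table, so each table was treated as normalized on its own and levels were never set side by side. No detection measure was used.

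Joining the platform annotations with RefSeq gene names named 24471 probe sets with 1 gene, left 27196 with no gene, 1851 with several and 99 with different genes, and gave 22426 genes, each with its probe set of highest mean. Groups and replicate numbers came from the sample titles. Fits of group means with empirical Bayes moderation used limma 3.58.1 in R 4.3.3, with 3 residual degrees of freedom for the ZHX2 arrays and 2 for the p65 arrays. All adjusted p-values are Benjamini-Hochberg over all genes, from limma, and the procedure was tested on simulated data. The members, roles and other lists were chosen with earlier results of these data known.

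All 33 genes are named. Values on every array are given for ZHX2, RELA, each gene called in a ZHX2 comparison and the 5 genes with the smallest p in the p65 comparison. SLC2A3 in that comparison, LDHA, DLAT and MYC are given in addition. In each further list and in the marker lists the called genes are named, with changes for at most the 2 of smallest p, besides EPAS1, the arrays of LDHC and the p65 value of GPD2. Alternatives were quantile normalization, median centring, robust moderation, an intensity trend, a dim filter at the 40th percentile of mean signal, averaging over a gene's probe sets, array weights, a replicate block, fits of 2 groups alone, a 1.5-fold minimum and omission of each array. Promoter letters were searched in RefSeq windows.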

Additional observations from a re-analysis of the deposited data

How the results depend on the processing

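The counts of called genes, of 31, moved as follows. Shares of all genes called moved with the settings too and are given in brackets. Rises with both hairpins averaged numbered 8 with array weights (9.32%) and 8 after quantile normalization (9.41%). They numbered 13 with the dim filter (21%) and 15 with an intensity trend (17.3%), beside 11.9% as reported. Array weights ended the calls of SLC2A1, GAPDH, PGAM1 and LDHB. For the mean of both hairpins, 12 rises became 1 with a 1.5-fold minimum and 3 to 8 with 1 array left out. The single fall became 2 with an intensity trend (8.89%) or the dim filter (11.1%), 4 after quantile normalization (8.29%) and 0 with a 1.5-fold minimum. With arrays left out it was kept only without scrambled replicate 1. For hairpin 44, 2 rises (4.81%) became 10 with an intensity trend (11.7%) and 6 with the dim filter (12.1%). They became 1 with array weights (3.39%), with only the 2 groups compared (1.35%) or with a 1.5-fold minimum. Omission of any array also left fewer. The 0 falls with hairpin 44 became 1 with an intensity trend (5.82%). For hairpin 45, 11 rises (13%) became 15 with an intensity trend (18.3%), 15 with the dim filter (22.2%) and 14 with median centring (15.1%). They became 7 after quantile normalization (9.85%) and 3 with a 1.5-fold minimum, and were fewer on omission of any array. The 2 falls with hairpin 45 became 4 with an intensity trend (9.59%), the dim filter (12%) or quantile normalization (8.72%). They became 1 with median centring (5.4%), with only the 2 groups compared (5.13%) or with a 1.5-fold minimum, and were fewer on omission of any array. Between the hairpins, 0 rises became 2 with an intensity trend (4.11%), and for p65 shRNA 0 became 1 (1.37%). Of the alternative values of single genes, 3569 stayed on the same side of the threshold, 74 gained a call, 393 lost one and 0 changed the sign of a call. These values cover all the comparisons and include genes that were not called in the reported fit. With p65 shRNA and between the hairpins 0 of the 31 were called in that fit. The number that stayed on the same side therefore does not measure how many calls held. A lone array left in a group was assumed to vary like the other groups, and fewer arrays also leave fewer degrees of freedom. For other changes the cause was not tested.

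Arrays of the same replicate number did not deviate together across genes (correlations of deviations -0.03 to 0.05 in the ZHX2 table and 0.01 in the p65 table). Whether such arrays share a culture or a day besides the number is not in the labels. With that number as a replicate block, 8 genes rose (beside 9.69% of all genes) and 0 fell (5.44%) for the mean of both hairpins. For hairpin 44, 1 rose (2.08%), and for hairpin 45, 10 rose (10.9%) and 1 fell (6.05%).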
